A study of Mus musculus with 6 samples.

Results

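Genes that bind, sense or convert thyroid hormone were examined in mouse prostates with and without castration: Crym, Thra, Thrb, Dio1 and Dio2. They are 5 of the 24421 gene symbols in the deposited tables. Crym was selected on its higher level after castration in these same samples, and the receptor and deiodinase genes were added by function, so the difference in Crym between the groups is a description and carries no test. A transporter that the selection mentions without a name is not analysed here.

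The 6 samples are prostate, all from mice of 1 genotype, in which Cre recombinase under a probasin promoter (PB-Cre4), active in prostate epithelium, deletes a floxed gene. The labels call 2 samples intact and 4 castrated (Cx). Castration takes away the testes and with them most androgen. The deletion is shared by both groups, other cells of the organ keep the gene, and neither age, time since castration, nor whether each sample is a separate animal is stated. P-values therefore reflect only how much these samples vary, and that variation may be technical.

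Thyroid hormone is secreted mostly as the prohormone thyroxine. Deiodinases in target tissues remove iodine from it, either making the active hormone triiodothyronine or inactivating it, and the active hormone acts through nuclear receptors that pair with retinoid X receptors on DNA. Inside the cell, the Crym product, mu-crystallin, binds triiodothyronine in the presence of NADPH and is also a ketimine reductase of lysine breakdown. Thyroid hormone receptors belong to the same superfamily of nuclear receptors as the androgen receptor, on which the prostate depends.

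Reads counted in genes came to 43679297 in the shallowest sample and 59170793 in the deepest. Levels are given as rescaled CPM, the deposited CPM (counts per 1000000 counted reads) divided by a size factor per sample. The epithelial marker Krt8 stood at 1931 and 2337 rescaled CPM in the lower and higher intact sample and at 1536 to 2505 in castrated samples, and Epcam at 1117 to 1134 and at 747 to 1059. The 4 seminal vesicle markers had at most 3 reads in any sample. Of the thyroid gland markers, the iodotyrosine deiodinase gene Iyd had at most 3 reads in any sample, the thyroglobulin gene Tg was at 0.187 or below, and the iodide transporter gene Slc5a5 stood at 10.7 and 11.9 in intact samples and at 11.8 to 18.6 in castrated ones. Whole-gene counts include exons and cells outside the deletion and do not check it. In bulk tissue, fewer cells of a type and less RNA per cell cannot be told apart.

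Crym (chromosome 7, 120186380 to 120202111, minus strand, GRCm38) was low in both intact prostates and much higher in all castrated ones. Intact samples 1 and 2 held 2.15 and 9.81 rescaled CPM. Castrated samples 1 to 4 held 185, 101, 142 and 37.5. The groups did not overlap, castrated sample 4 was the lowest of its group, and the intact samples also differed several-fold from each other. The means were 5.98 ± 5.41 (SD, n = 2) and 116 ± 62.9 (n = 4), a log2 difference of 4.26 (SE 0.75). On the log2(value + 0.5) scale this is 19.2-fold, and it was 9.72-fold without intact sample 1 and 37.8-fold without intact sample 2. In reads, 92 and 561 were counted in the intact samples and 2320 to 9737 in the castrated ones, so counting error is small beside the spread between samples. No other annotated gene shares exon bases with Crym.

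**Figure D1:**
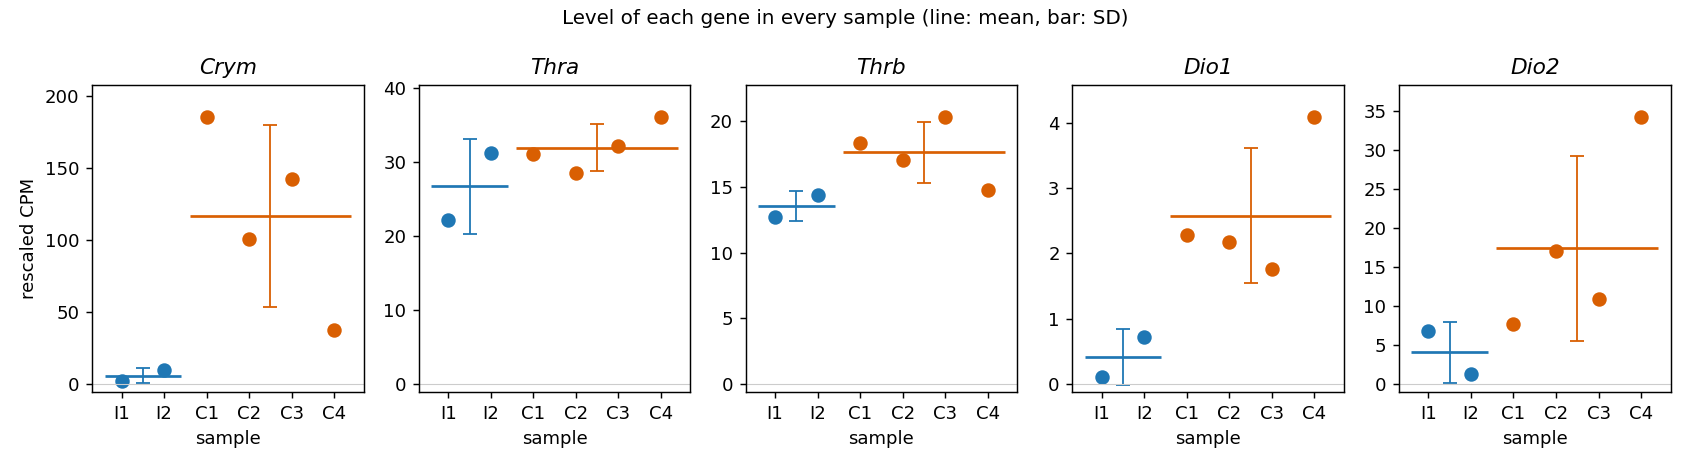
Rescaled CPM (vertical axes, each starting just below 0) of the 5 genes in intact samples 1 and 2 (I1, I2, blue) and castrated samples 1 to 4 (C1 to C4, orange), with a line at the group mean and a bar of 1 SD. Crym, Thrb, Dio1 and Dio2 are higher in every castrated sample than in either intact one, Thra overlaps, and castrated sample 4 is the lowest castrated sample for Crym and the highest for Dio1 and Dio2.

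The genes whose profile over the 6 samples lay closest to that of Crym were, in order, Peg10, Atp6v0d2, Foxi1, Fxyd2 and Atp6v1g3. Closeness is the root mean square difference of log2 values after removing each gene's mean, over 11123 genes with a mean of at least 5 rescaled CPM, and it was 0.35, 0.38, 0.45, 0.46 and 0.48 for these 5. Peg10, an imprinted gene derived from a retrotransposon, stood at 0.258 and 1.68 in intact samples and at 40.05, 35.8, 34.9 and 14.9 in castrated samples 1 to 4. Foxi1, which encodes a regulator found in acid-secreting epithelia, stood at 0.0468 and 1.05, then at 23.5, 30.6, 40.6 and 7.06. Like Crym, both were lower in intact sample 1 than in intact sample 2 and lowest among castrated samples in sample 4. Both were picked for following Crym over these same samples, so nothing is read from that shared order. Fxyd2 encodes a regulator of the sodium pump, and Atp6v0d2 and Atp6v1g3 encode subunits of the vacuolar proton pump. Likeness of this kind is a description over 6 samples in 2 groups that differ in both genes.

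The marker sum for acid-secreting cells was also higher in castrated samples. Foxi1, Atp6v1g3 and Atp6v0d2 of this list are among the close profiles above, so the list is no separate observation. The 6 genes of that list (Foxi1, Atp6v1g3, Atp6v0d2, Atp6v1b1, Atp6v0a4 and Slc4a9) summed to 3.53 and 18.0 rescaled CPM in intact samples 1 and 2. They summed to 103, 139.8, 162 and 39.2 in castrated samples 1 to 4. None was at 0 reads throughout. All 6 had positive differences, as did 50.1% of all tested genes. At an adjusted p under 0.05 limma called Foxi1, Atp6v1g3 and Atp6v0d2, and 1.97% of all tested genes. Nothing is read from these calls, since the called genes were picked as close to Crym. Atp6v1g3 and Slc4a9 passed the filter through the castrated samples alone. edgeR called 0 of the 6. For the sum, as in Crym, intact sample 1 was the lowest and castrated sample 4 the lowest of its group. Castrated sample 3 was the highest for the sum and castrated sample 1 for Crym. Atp6v1b1 and Atp6v0a4 overlapped between the groups, and Atp6v0a4 was highest in castrated sample 4, at 3.13. The 7 markers of skeletal muscle, a tissue known for Crym, summed to 2.32 and 3.34 in intact samples, to 19.1 in castrated sample 1, and to 1.86 to 2.30 in castrated samples 2 to 4. The part of either cell type in the Crym difference was not tested.

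**Figure D2:**
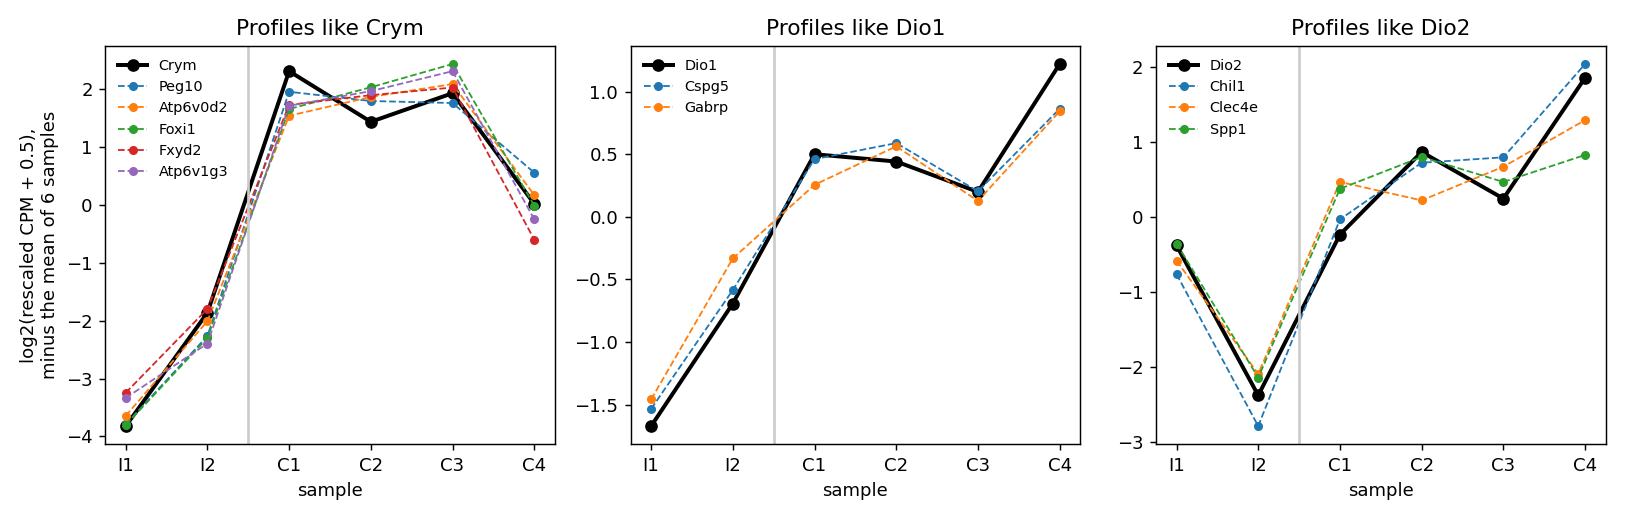
Log2(rescaled CPM + 0.5) minus the mean of the 6 samples (vertical axes) for Crym, Dio1 and Dio2 (black) and genes among those with the closest profiles (colours), in intact (I1, I2) and castrated (C1 to C4) samples; lines only join the points of 1 gene. The Crym panel shows all 6 genes lowest in intact sample 1 and, among castrated samples, lowest in sample 4. The Dio2 panel shows Dio2 and its 3 neighbours lowest in intact sample 2 and highest in castrated sample 4. The neighbours were picked on these same samples, so nothing is read from the shared order.

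The deiodinases are selenoproteins: an in-frame TGA codon, elsewhere a stop, is read as selenocysteine at the catalytic site. The stretches around that codon are shown because they mark the shared active site of the family. They are coding bases from GENCODE transcripts on GRCm38, 5′ to 3′ on the sense strand, with the selenocysteine codon in capitals.
Dio1: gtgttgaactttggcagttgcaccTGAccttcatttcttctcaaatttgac
Dio2: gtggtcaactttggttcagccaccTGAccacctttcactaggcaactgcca
Dio3: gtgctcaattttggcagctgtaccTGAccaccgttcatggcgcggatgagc
These lie within a single coding exon each, at chr4:107297676-107297726 (Dio1, minus strand), chr12:90729799-90729849 (Dio2, minus strand) and chr12:110279715-110279765 (Dio3, plus strand). The capital codon is number 126 of 257 in Dio1, 130 of 266 in Dio2 and 170 of 304 in Dio3. Dio2 has a further annotated selenocysteine codon near its end, number 263, which is not shown. Of 51 bases, 28 in the Dio2 window and 30 in the Dio3 window are identical to Dio1. The longest run of identical bases between the Dio1 and Dio2 coding sequences is 11.

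Dio1 (chromosome 4, 107291465 to 107307169), which encodes the deiodinase known from liver, kidney and thyroid, had the lowest mean of the 5 genes per kb of exon in both groups, although Dio2 was lower in intact sample 2, and it was higher in all castrated samples. The intact samples held 0.117 and 0.717 rescaled CPM, from 5 and 41 reads. The castrated ones held 2.28, 2.17, 1.76 and 4.08, from 100 to 253 reads. The groups did not overlap, and castrated sample 4 was the highest. The means were 0.417 ± 0.424 (n = 2) and 2.57 ± 1.03 (n = 4), a log2 difference of 1.77 (SE 0.40, 95% interval 0.81 to 2.74). The adjusted p from limma over all 13898 tested genes was 0.0910, which does not pass 0.05. edgeR on the recovered reads gave an adjusted p of 0.169, and DESeq2 gave 0.00780 with a log2 difference of 2.61. Dio1 entered the test through the castrated samples alone, since 0 intact and 4 castrated samples reached 1 CPM.

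Dio2 (chromosome 12, 90724552 to 90738438) encodes the activating deiodinase known from brain, pituitary and brown fat. Intact samples 1 and 2 held 6.88 and 1.35 rescaled CPM, and castrated samples 1 to 4 held 7.66, 17.0, 10.9 and 34.3. The groups did not overlap, but the gap between intact sample 1 and castrated sample 1 was small beside the spread within either group. The means were 4.11 ± 3.91 and 17.5 ± 11.9, a log2 difference of 2.06 (SE 0.72, 95% interval 0.34 to 3.79, limma adjusted p = 0.224). It was 8.35-fold without intact sample 1 and 2.09-fold without intact sample 2, against 4.18-fold with both. edgeR gave an adjusted p of 0.315 and DESeq2 0.0411. An antisense gene model covers 1.72% of the exon bases of Dio2.

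Dio3, the inactivating deiodinase gene, is no member of the 5 and is given to complete the family. It stood at 6.48 and 2.19 in intact samples and at 3.23, 3.72, 3.83 and 11.4 in castrated samples. The groups overlapped (log2 difference 0.30, interval -1.09 to 1.69, limma adjusted p = 0.867). Castrated sample 4 was thus the highest castrated sample for all 3 deiodinases, at 1.97 times the mean of castrated samples 1 to 3 for Dio1, 2.89 times for Dio2 and 3.16 times for Dio3. Over all tested genes, 35.4% were highest among castrated samples in sample 4 and 38.6% were lowest there.

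Among the genes closest in profile to Dio1 were Cspg5 and Gabrp, at root mean square differences of 0.17 and 0.26. Gabrp, a subunit of a receptor for the transmitter GABA, stood at 141 and 309 in intact and 425 to 698 in castrated samples. The genes closest to Dio2 were Chil1, Clec4e and Spp1, at 0.34, 0.51 and 0.51. Spp1, which encodes the secreted protein osteopontin, stood at 94.5 and 27.0 in intact and at 157 to 215 in castrated samples. Chil1, a chitinase-like protein gene, stood at 5.38 and 0.944 in intact and at 9.26, 16.0, 16.8 and 40.5 in castrated samples. As in Dio2, intact sample 2 was the lowest and castrated sample 4 the highest in Chil1, which was picked for following Dio2 over these samples. The 5 leukocyte markers (Ptprc, Cd3e, Cd79a, Adgre1 and S100a8) summed to 138 and 79.9 in intact samples 1 and 2 and to 139, 143, 180.2 and 198 in castrated samples 1 to 4, and none was at 0 reads throughout. The neutrophil gene S100a8 carried the difference, at 17.8 and 5.93 in intact and at 59.3, 53.5, 93.4 and 53.4 in castrated samples, and it was the marker limma called (edgeR called 0 of the 5). The other 4 overlapped between the groups, with log2 differences from -0.38 to 0.13. In castrated sample 4, where Dio2 was highest, Ptprc and Adgre1 were the highest of the castrated group, at 88.9 and 48.5, and S100a8 was not. Sums of fibroblast, endothelial, neuroendocrine and thyroid gland markers were also highest among castrated samples in sample 4. The part of any of these cell types in the Dio2 values was not tested.

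The receptor genes Thra and Thrb varied much less than Crym or the deiodinases. Thra (chromosome 11, 98740638 to 98769006) encodes the receptor form that is widespread across tissues, and a splice form of it that does not bind the hormone. Intact samples held 22.2 and 31.3 rescaled CPM, and castrated samples 31.2, 28.5, 32.2 and 36.1. The groups overlapped, since intact sample 2 lay above castrated samples 1 and 2. The means were 26.8 ± 6.44 (n = 2) and 32.0 ± 3.16 (n = 4), a log2 difference of 0.27 (95% interval -0.13 to 0.67, limma adjusted p = 0.517).

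Thrb (chromosome 14, 17660261 to 18038090) encodes the receptor form known for feedback in the pituitary and for action in liver. It stood at 12.7 and 14.4 in intact samples and at 18.3, 17.0, 20.3 and 14.8 in castrated samples. The groups did not overlap, with castrated sample 4 only just above intact sample 2. The means were 13.5 ± 1.16 and 17.6 ± 2.32, a log2 difference of 0.36 (95% interval -0.02 to 0.74, limma adjusted p = 0.341). For both receptors the interval includes 0, and its upper end is below a doubling (a log2 difference of 1).

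Counts per gene cannot separate the receptor isoforms. The coding transcript Thra-201 shares 263 bases with exons of the antisense gene Nr1d1, which encodes a clock repressor, while Thra-202 shares 0. In all, Nr1d1 covers 5.70% of the exon bases of Thra, and the sources used here do not give whether counting used strand. Nr1d1 stood at 29.2 and 66.3 in intact samples and at 36.1 to 42.8 in castrated samples, so that intact sample 2 was the highest for Nr1d1 and the higher intact sample for Thra. The part of this overlap in the Thra values was not tested. Between the coding sequences of Thra and Thrb the longest identical run is 26 bases. It is shown because only a read lying wholly within such a run could not be assigned to either receptor. Whether any read was that short was not examined.
Thra and Thrb: ggctgctgcatggagatcatgtccct
It starts at base 757 of the 1476 coding bases of Thra-201 and at base 961 of the 1425 of Thrb-202.

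The balance of the receptor genes was compared as the log2 ratio of Thra to Thrb. Counts of Thra take in the splice form that does not bind the hormone. The ratio is thus one of genes and not of hormone-binding receptors. It was 0.78 and 1.10 in intact samples and 0.75, 0.73, 0.65 and 1.26 in castrated samples. The difference of the means was -0.09, and an exact two-sided permutation test over the 15 arrangements gave p = 0.8, where the smallest possible p is 0.0667. Castrated samples 1 to 3 lay below both intact samples and castrated sample 4 above both. Without castrated sample 4 the difference was -0.23, and without intact sample 2 it was 0.07.

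Levels were compared between genes per kb of annotated exon. In intact samples Thra was the highest at 5.80 ± 1.396 rescaled CPM per kb, followed by Thrb at 1.83 ± 0.16, Crym at 1.76 ± 1.597, Dio2 at 0.708 ± 0.673 and Dio1 at 0.212 ± 0.215. The range of Thra lay above all others, while Thrb and Crym, Crym and Dio2, and Dio2 and Dio1 overlapped. In castrated samples Crym was the highest at 34.3 ± 18.5, followed by Thra at 6.94 ± 0.68, Dio2 at 3.00 ± 2.04, Thrb at 2.38 ± 0.31 and Dio1 at 1.31 ± 0.52. Crym, Thra and the rest did not overlap there, whereas Dio2 overlapped Thrb and Thrb overlapped Dio1. Thra exceeded Thrb in each of the 6 samples, 2.55-fold to 3.92-fold per kb. The exon length of Crym (3391 bases) includes a retained-intron transcript, and its coding transcript has 1383. With the length of 1 coding transcript per gene, Crym came before Thrb in intact samples, with overlapping ranges, and the order in castrated samples was the same.

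**Figure D3:**
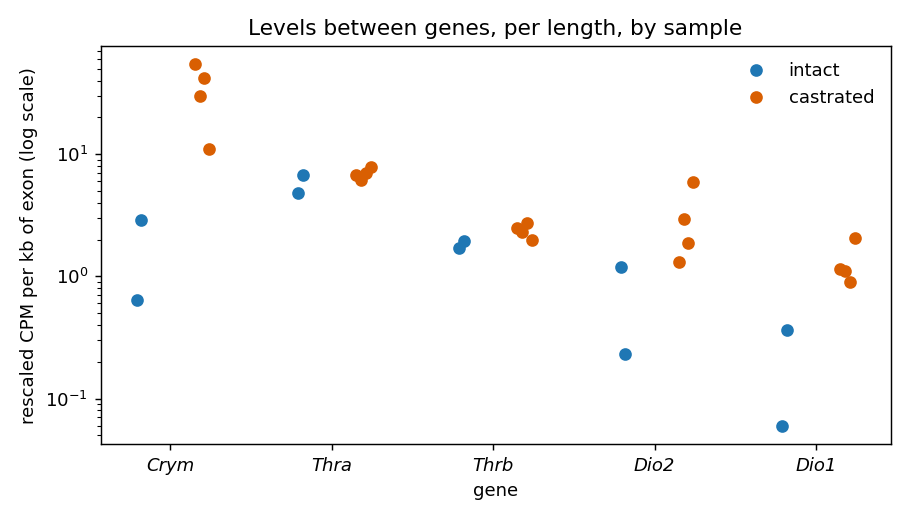
Rescaled CPM per kb of annotated exon (vertical axis, log scale) of the 5 genes in each intact (blue) and castrated (orange) sample. Thra is the highest of the 5 in both intact samples, and Crym, at 11.05 to 54.6, is the highest in all castrated samples.

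Across the table, limma called 274 of 13898 tested genes at an adjusted p under 0.05, 1.97% of them. Of the 5 genes, 1 was called, Crym, whose selection used this contrast, so nothing is read from that count. edgeR called 0 of the 5 and 1.46% of all tested genes. DESeq2 called Crym, Dio1 and Dio2, and 9.30% of all tested genes. Crym, Thrb, Dio1 and Dio2 were higher in castrated samples without overlap between the groups, as were 13.4% of all tested genes. Nothing is read from that count either, since Crym was selected on this contrast and Dio1 passed the filter through the castrated samples alone.

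The other 51 genes of the pathway come from lists by function. Of these, 41 passed the filter on low values, and 3 fell and 0 rose in castrated samples: Hr, Usp33 and Slco4a1. They make up 7.32% of the 41, against 1.97% of all tested genes, the share to set beside the counts per list below. At an unadjusted p under 0.05 there were 11, 3 higher and 8 lower, or 26.8%, against 15.9% of all tested genes. The median log2 difference over the 41 was -0.01, and over all tested genes it was 0.00. edgeR also called 3, and DESeq2, with its larger share over all genes, called 9.

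**Figure D4:**
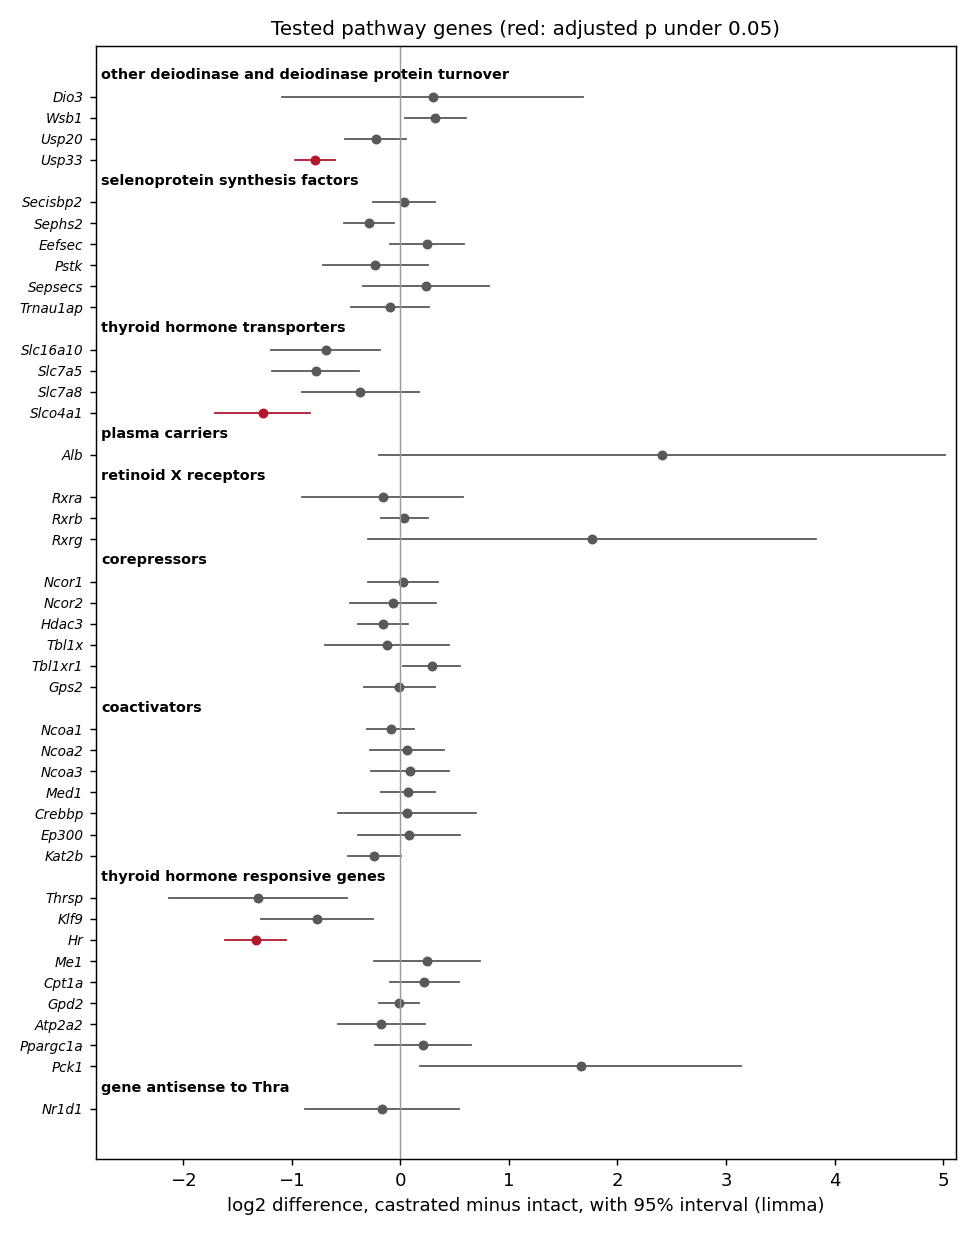
Log2 difference between castrated and intact samples (horizontal axis, positive is higher in castrated) with its 95% interval from limma for the 41 tested pathway genes, by list; red marks an adjusted p under 0.05. Hr, Usp33 and Slco4a1 lie to the left of 0, most cofactor genes lie near 0, and Alb, Rxrg and Pck1 have the widest intervals.

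Of 12 thyroid hormone responsive genes, 9 were tested, 1 fell and 0 rose, with a median log2 difference of -0.01. Hr (chromosome 14, 70552212 to 70573548) encodes hairless, a corepressor of the thyroid hormone receptor that is itself induced by the hormone in brain. Intact samples held 112 and 99.7 rescaled CPM, against 38.7, 39.5, 41.3 and 47.7 in castrated samples. Its groups were far apart, and it fell 2.52-fold, with a log2 difference of -1.33 and a standard error of 0.12 (limma adjusted p = 0.00849, edgeR 0.00989). Its call was lost without intact sample 1 or 2 (limma adjusted p = 0.126 and 0.0960), when a single sample stands for the intact group.

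Klf9, a transcription factor gene induced by thyroid and glucocorticoid hormones, stood at 37.5 and 43.3 in intact and at 22.2, 21.9, 32.6 and 19.3 in castrated samples. Its groups did not overlap, with a log2 difference of -0.77 (limma adjusted p = 0.142). Thrsp, a lipid synthesis gene named for its response to thyroid hormone, stood at 1.97 and 3.64 in intact and at 0.685, 1.06, 1.07 and 0.452 in castrated samples (log2 difference -1.31, limma adjusted p = 0.122). Pck1, an enzyme of glucose synthesis that passed the filter through castrated samples alone, had 0 and 5 reads in intact samples and 13 to 171 in castrated samples (log2 difference 1.66, limma adjusted p = 0.255). These 3 did not pass over all genes in limma, and the other 5 tested genes of the list had an unadjusted p of 0.05 or above. Markers of adipocytes, cells known for Thrsp and Pck1, summed to 6.74 and 7.33 in intact samples and to 36.3, 12.0, 43.6 and 6.80 in castrated samples 1 to 4. Of the 5 markers, 2 were tested and 0 called, and none was at 0 reads throughout. Castrated samples 1 and 3 had the highest sums, carried mostly by Fabp4, at 34.6 and 33.4 there. The other markers of that list were highest in castrated sample 3 and lower in sample 1 than in sample 2. Pck1 was highest in castrated sample 3, and the part of adipocytes in these values was not tested.

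Of 6 thyroid hormone transporter genes, 4 were tested, 1 fell and 0 rose, with a median log2 difference of -0.73. Slco4a1 (chromosome 2, 180456245 to 180474867), an organic anion transporter gene, stood at 11.3 and 13.2 in intact and at 4.18, 4.60, 4.73 and 5.78 in castrated samples. It fell 2.40-fold, with a log2 difference of -1.26 and a standard error of 0.18 (limma adjusted p = 0.0288, edgeR 0.0362). Its call held in 11 of 18 alternatives and was lost whenever a sample other than castrated sample 4 was left out (limma adjusted p from 0.0749 to 0.235). Slc7a5, which carries large neutral amino acids as well as thyroid hormone, stood at 75.6 and 85.9 in intact and at 38.6, 52.8, 42.9 and 54.8 in castrated samples (log2 difference -0.78, limma adjusted p = 0.0795). Slc16a10, an aromatic amino acid carrier gene, stood at 9.08 and 6.65 in intact and at 4.07 to 5.66 in castrated samples (log2 difference -0.68, limma adjusted p = 0.174). In these 3 genes the groups did not overlap, with castrated samples lower, as in 1835 of all 13898 tested genes. Slco1c1, the transporter of the blood-brain barrier, had 2 reads over both intact samples against 105 over the castrated ones, 23.9 times the depth-adjusted level, with an exact 95% binomial interval of 6.45 to 199.9 that covers counting error only.

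Of 4 genes for the remaining deiodinase and for deiodinase turnover, 1 fell and 0 rose. Usp33 (chromosome 3, 152346478 to 152393617) encodes a ubiquitin protease that stabilises the Dio2 protein. It stood at 143 and 147 in intact and at 85.9, 82.2, 82.8 and 84.7 in castrated samples. These were tight groups, and it fell 1.72-fold, with a log2 difference of -0.78 and a standard error of 0.08 (limma adjusted p = 0.0102, edgeR 0.0115). The call did not hold when intact sample 1, intact sample 2 or castrated sample 3 was left out (limma adjusted p = 0.126, 0.121 and 0.0570). Antisense gene models cover 24.4% of the exon bases of Usp33. Wsb1, part of the ubiquitin ligase that marks the Dio2 protein, stood at 49.5 and 45.6 in intact and at 52.8 to 66.5 in castrated samples (log2 difference 0.33, limma adjusted p = 0.231).

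The cofactor lists held no call. Of 3 retinoid X receptor genes, Rxra had a log2 difference of -0.16 (interval -0.90 to 0.58) and Rxrb of 0.04 (interval -0.18 to 0.26). Rxrg stood at 2.46 and 3.43 in intact and at 25.4, 9.96, 22.5 and 2.41 in castrated samples, high in 3 castrated samples and at the intact level in sample 4 (limma adjusted p = 0.388). Without castrated sample 4, Rxrg was 5.38-fold higher (limma adjusted p = 0.0247), against 3.40-fold with it. The sum of adipocyte markers was likewise high in castrated samples 1 and 3 and at the intact level in sample 4. That sum was carried mostly by Fabp4, and the other adipocyte markers were lower in castrated sample 1 than in sample 2. Basal epithelial markers summed to 3316 and 3723 in intact samples and to 596, 3452, 759 and 2578 in castrated samples 1 to 4. The sum was low in the 2 samples where Rxrg was highest. Lamb3 of that list hardly differed among castrated samples, at 40.2, 43.9, 42.4 and 47.6, against 106 and 98.8 in intact samples. The part of either cell type in the Rxrg values was not tested. Among 6 corepressor genes, Tbl1xr1 had an unadjusted p under 0.05 (log2 difference 0.29, limma adjusted p = 0.259). Among 7 coactivator genes there was no such gene, and their median log2 difference was 0.06. The 3 with the highest levels, Kat2b, Ep300 and Ncoa3, had log2 differences of -0.24, 0.08 and 0.09. Of 6 selenoprotein synthesis genes, Sephs2, which makes the selenium donor, was lower at an unadjusted p under 0.05 (log2 difference -0.29, limma adjusted p = 0.202), and an antisense gene model covers 36.4% of its exon bases.

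Carriers and partner enzymes were sparse. Of 3 plasma carriers, Alb alone was tested, with 2 reads over the intact samples against 460, 79, 315 and 3 in the castrated ones, 195 times the depth-adjusted level, with an exact 95% binomial interval of 53.8 to 1613 for counting error only. Castrated sample 4 was thus near the intact level for Alb, and Alb passed the filter through castrated samples alone. Between samples, the limma log2 difference of Alb was 2.41, with a 95% interval of -0.19 to 5.01 that includes 0. Neither limma nor edgeR called Alb, while DESeq2 did. Of the other 2 carriers, 1 had 0 reads in every sample and 1 had reads in the intact samples only, so the list has no common direction. Like Rxrg, Alb was highest in castrated samples 1 and 3, where the adipocyte marker sum, carried mostly by Fabp4, was also highest. The part of adipocytes in the Alb values was not tested. None of the 3 lysine breakdown genes Aass, Aadat and Pipox, which act in the pathway of the ketimine reductase activity of Crym, passed the filter. Aadat and Pipox had at most 3 reads in any sample. Aass stood at 0.108 to 1.10 rescaled CPM in castrated samples 1 to 3 and at 0.0323 in castrated sample 4. The 3 genes summed to 0.0702 and 0.332 in intact samples and to 0.0969 to 1.14 in castrated ones, where Crym stood at 37.5 to 185.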

How the data were processed

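Gene expression was measured by RNA sequencing in 2 intact and 4 castrated samples, grouped by their labels. The authors deposited CPM (reads per 1000000 reads counted in genes), 1 table per sample; the submitters' processing notes name TopHat2, HTSeq, edgeR and the build mm10, without versions or settings. In each sample every CPM value (100%) was a whole number of steps the size of the lowest nonzero one (tolerance 1e-06), so whole reads were recovered. CPM was divided by median-of-ratios size factors (0.978 to 1.05). The 13898 genes that reached a CPM of 1 in 2 or more samples were tested with limma 3.58.1 (R 4.3.3) on log2(rescaled CPM + 0.5), with a mean-variance trend, two-sided, Benjamini-Hochberg adjustment over all tested genes and a threshold of 0.05. Fold changes on this scale understate changes of low genes. The exact permutation test was used for the receptor ratio.

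Alternatives were pseudocounts of 0.1 and 1, filters, scalings, moderation, array weights, the replicate number as a block, each sample left out, and on recovered reads edgeR 4.0.16 (quasi-likelihood, 203 genes called) and DESeq2 1.42.0 (1293 called). The fits were also run on simulated counts in which all genes had the same relative spread beyond counting error. That setting does not cover genes that vary several-fold within a group, and nothing is read from it. Positions, exon lengths, overlaps and coding sequences are from GENCODE M21 on GRCm38, the assembly mm10 names; all 56 genes matched by symbol. The members and lists were chosen with earlier results of these data known. Genes named are the 5 members, list genes with an unadjusted p under 0.05, up to 3 of the most abundant where a list has none, and the closest profiles (5 for Crym, 3 for other members spanning at least 2 on the log2 scale). Dio3, Slco1c1 and the lysine breakdown genes were named after their values were seen. Some genes of the lists, and 1 gene close to Dio1, are not reported here.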

Additional observations from a re-analysis of the deposited data

Results flagged for a closer look

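Dio3 stood at 11.4 rescaled CPM in castrated sample 4, far above the other castrated samples at 3.23 to 3.83. Its gap to the nearest of them was 0.93 of the range of the group. The log2 ratio of Thra to Thrb was 1.26 in the same sample, against 0.65 to 0.75 in the other castrated samples, with a gap of 0.84 of the range. Both gaps exceed Dixon's critical value for 4 samples. Of 26 measures examined in this way, 25 genes and the ratio, 2 stood out, and chance alone gives about 1 in 20.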

How the results depend on the processing

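The number of genes called, 274, became 1293 in DESeq2, 954 with array weights, 170 without a filter and 1 to 1052 with a sample left out. The 3 called pathway genes became 9 in DESeq2 and 0 to 8 with a sample left out. Leaving out an intact sample leaves a lone one that is assumed to vary like the castrated group. The ratio of Thra to Thrb differed by -0.25 to 0.067 with a sample left out; it reversed to 0.067 without intact sample 2. With a sample left out, uncalled differences also changed sign for Dio3 (-0.39 to 0.99, negative without intact sample 2 or, at -0.086, castrated sample 4), Ep300 (-0.037 to 0.21, negative without castrated sample 4), and Rxra (-0.41 to 0.089) and Nr1d1 (-0.75 to 0.42), both positive without intact sample 2. Crym, Thra, Thrb, Dio1 and Dio2 kept a positive difference in every alternative in which they were tested: Crym from 3.28 to 5.24, Thra from 0.02 to 0.51, Thrb from 0.27 to 0.44, Dio1 from 1.28 to 2.61 and Dio2 from 1.06 to 3.06. With CPM of at least 5 as the filter, Dio1 was not tested. The Thra to Thrb ratio per kb was 3.03 by exon length and 4.78 by 1 coding transcript, a choice made after seeing the data. The cause of these shifts was not tested. Depth limits Dio1, Alb and Slco1c1, which rest on few intact reads.

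With the replicate number as a block, 417 genes and 2 pathway genes were called, Slco4a1 lost its call (adjusted p = 0.0576), the receptor ratio differed by -0.20, and Dio3, Ep300 and Ncoa3 reversed to -0.13, -0.12 and -0.069. The labels tie the numbers to no shared animal or batch. Deviations of same-numbered samples correlated at 0.0754 and 0.226 over genes, and those of intact sample 1 and castrated sample 3 at 0.106. With 2 intact samples the deviations are mirror images, so each value comes with its opposite, and nothing is read from them.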
